A study of Mus musculus with 10 samples.

Results

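The Hoxa and Meis1 program was followed in 7 genes: Hoxa5, Hoxa7, Hoxa9 and Hoxa10 of the Hoxa cluster, the cofactor genes Meis1 and Pbx3, and the co-regulator gene Mn1. They were chosen by name, with earlier results of these data known, and all 7 were found among the 52636 genes of the count table. Of them 6 passed the low-count filter that left 15916 genes for testing, and Meis1 did not.

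The cells carried 3 MSCV retroviral vectors, for IDH2 R140Q, for NRAS G12D and for DNMT3A R882H, a methyltransferase mutant that doxycycline switches, put into mouse fetal liver cells. The leukaemia that grew was frozen and passed on into Ptprca recipients. Doxycycline in chow and water turned the DNMT3A R882H vector off, while IDH2 R140Q and NRAS G12D stayed in all groups. The groups were day 14 off (4 libraries), day 14 on (2 libraries), day 5 off (2 libraries) and day 5 on (2 libraries), where off is 14 or 5 days of doxycycline and on is the untreated state. cKit-positive, Cd11b-negative cells were sorted from bone marrow and spleen. No group received doxycycline without the regulated vector, so effects of doxycycline itself and of the vector cannot be told apart. The labels give neither the age of the mice, nor how many primary leukaemias the cells came from, nor the mouse or organ behind each library. The p-values therefore measure the spread between these libraries, which may in part be technical.

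HOX proteins are homeodomain transcription factors that bind DNA together with TALE homeodomain partners of the MEIS and PBX families. In blood, the 5′ Hoxa genes and Meis1 are active in stem and early progenitor cells and are shut down as cells mature. Many acute myeloid leukaemias keep them on, and in mice forced expression of Hoxa9 with Meis1 is enough to cause leukaemia. MN1 is a transcriptional co-regulator that is overexpressed in some human acute myeloid leukaemias, and in mice its leukaemogenic activity needs Hoxa9 and Meis1.

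Total counts ran from 9292644 to 14340624 per library. Genes at ribosomal RNA loci took 7.78% to 16.5% of them. Levels are given in CPM, counts divided by the library's total after TMM scaling. Taking 3 counts as the limit, a count of 0 allowed up to 0.323 CPM in the shallowest library before TMM scaling. Where depth was greatest it allowed up to 0.209 CPM. On the scaled levels, 3 counts were 0.337 CPM in the shallowest library. These limits, and the intervals of shares below, cover counting error only. The count table holds 3′ tags, and CPM was not divided by gene length, so each gene is compared with itself between groups. In bulk RNA, fewer cells of a type and less RNA per cell cannot be told apart.

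With the vector off at day 14, Hoxa9 and Mn1 fell, and Hoxa5, Hoxa7, Hoxa10 and Pbx3 did not pass the test. Of the 6 tested genes, 0 were called higher and 2 lower, beside 31.8% of all tested genes called at day 14, 16.9% higher and 14.9% lower (edgeR's quasi-likelihood test, Benjamini-Hochberg adjusted p under 0.05). This share of 33.3% of the members is close to the background. The median log2 change was -0.44 over the 6 genes and 0.01 over all tested genes. At day 5 edgeR called 0 of the 6, with 1 (Mn1) at an unadjusted p under 0.05 and 0 by DESeq2 and by limma voom, where 0.484% of all tested genes were called. Meis1, the partner that gives the program its name, was at or near the detection floor in all 10 libraries.

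Meis1 (ENSMUSG00000020160, chromosome 11, 18879817 to 19018985, minus strand, mm10) had 1, 2, 1 and 7 counts in day 14 off cells, 1 and 1 in day 14 on cells, 1 and 1 in day 5 off cells, and 1 and 0 in day 5 on cells. These 16 counts in all came to 0.0688 to 0.659 CPM in day 14 off cells, 0.0903 and 0.104 CPM in day 14 on cells, 0.0812 and 0.103 CPM in day 5 off cells, and 0 and 0.112 CPM in day 5 on cells. Day 14 off replicate 4 held 7 of the counts, and every other library had 2 or fewer. Meis1 was thus hardly seen in these counts and was not tested, and the member tests below are of the Hoxa genes, Pbx3 and Mn1. Gm16140, a gene on the opposite strand that overlaps Meis1 by 896 bases, had 3 counts, all in that same library. Gm37818, on the same strand, overlaps Meis1 by 1029 bases and had 0 counts in all libraries. How reads within such overlaps were counted is not given, so the floor counts do not show that Meis1 was silent. The strand setting of the counting is not given in the sources used here, and antisense reads cannot be told apart from Meis1 reads.

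**Figure D1:**
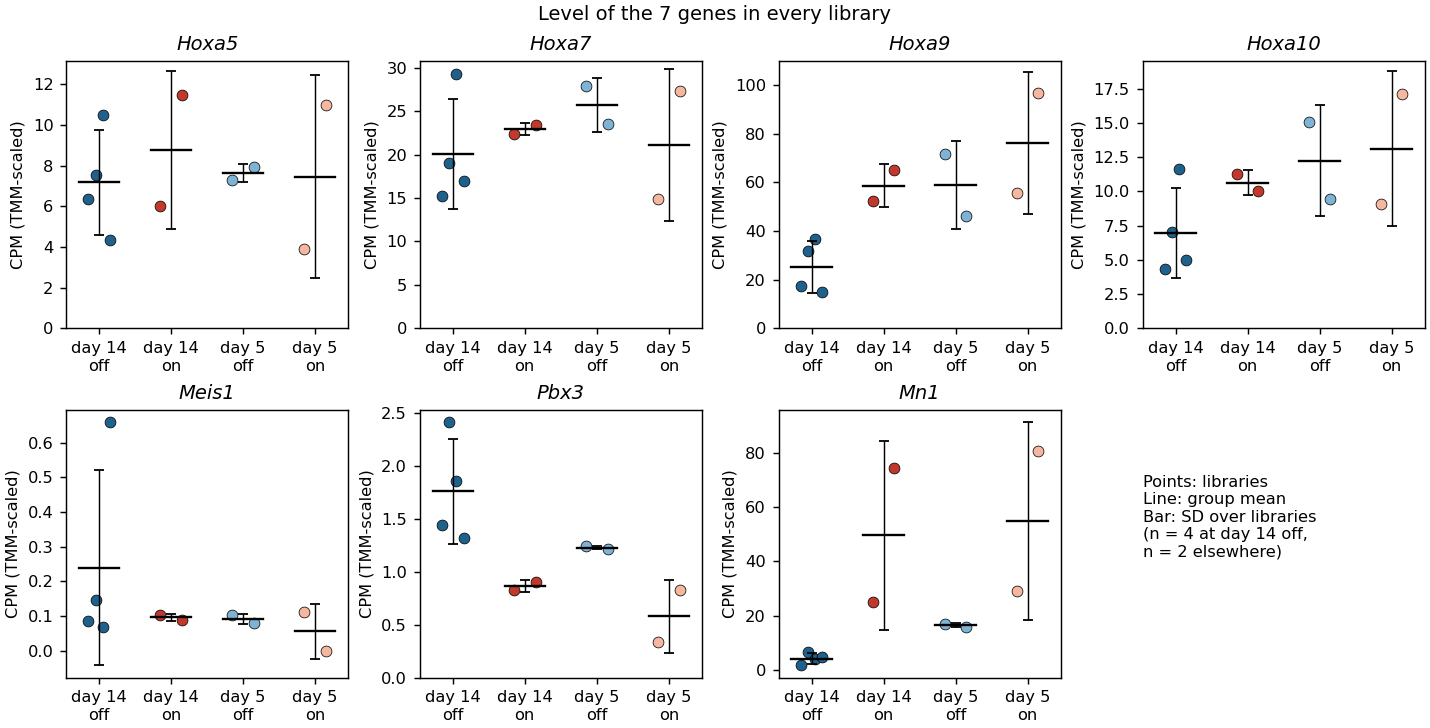
Level of each of the 7 genes in CPM (TMM-scaled, linear axis) by group, with points for libraries, a line for the group mean and a bar for the SD (n = 4 in day 14 off cells, n = 2 in the other groups). All 4 day 14 off libraries lie below the other 6 for Hoxa9 and for Mn1, and Meis1 stays below 1 CPM throughout. Day 14 off and on libraries did not overlap in 52.5% of all tested genes.

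Hoxa9 (ENSMUSG00000038227, chromosome 6, 52223100 to 52231089, minus strand, mm10) is the homeobox gene of the cluster most closely tied to acute myeloid leukaemia. Its level was 17.5, 31.8, 36.6 and 14.9 CPM in day 14 off cells and 52.4 and 65.0 CPM in day 14 on cells. At day 5 it was 71.8 and 46.2 CPM off, and 55.6 and 96.8 CPM on. Every day 14 off library lay below every other library, and the day 5 groups overlapped. Of all tested genes, 52.5% did not overlap between day 14 off and on, and 45.7% between day 14 off and day 5 off. The share in which day 14 off lay apart from all other groups was not counted. The group means were 25.2 ± 10.6 CPM in day 14 off cells (SD, n = 4), 58.7 ± 8.9 in day 14 on cells, 59.0 ± 18.1 in day 5 off cells and 76.2 ± 29.1 in day 5 on cells (SD, n = 2 each). In order of level, day 5 on stood highest and day 14 off lowest, and the 3 highest groups overlapped in their libraries. The day 14 change was -1.22 ± 0.36 (log2 off over on, SE, edgeR adjusted p = 0.0284), 2.32-fold lower. This call rested on single libraries. The adjusted p was 0.0656 without day 14 off replicate 1, 0.0509 without day 14 off replicate 4, 0.0565 without day 14 on replicate 1 and 0.132 without day 14 on replicate 2, with log2 changes of -1.40 to -1.04. At day 5 the change was -0.37 ± 0.43 (adjusted p = 0.736). The gene Mir196b lies within Hoxa9 on the same strand over 85 bases and had 0 to 4 counts per library.

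Promoter sequence is shown for Hoxa9, the called Hoxa gene, beside Hoxa5, which was not called, because DNMT3A acts on the cytosine of CG dinucleotides. Both windows run from 250 bases before to 50 bases after the transcript start in RefSeq (GRCm38.p6), on the minus strand, and capitals mark each CG. Hoxa9 lies at chr6:52227321-52227620 and Hoxa5 at chr6:52204538-52204837.
Hoxa9: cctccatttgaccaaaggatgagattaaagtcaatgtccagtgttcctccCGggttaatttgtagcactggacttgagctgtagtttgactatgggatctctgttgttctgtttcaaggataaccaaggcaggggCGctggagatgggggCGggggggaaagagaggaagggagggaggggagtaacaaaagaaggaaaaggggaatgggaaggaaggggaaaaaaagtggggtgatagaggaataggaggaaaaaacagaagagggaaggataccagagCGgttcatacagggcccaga
Hoxa5: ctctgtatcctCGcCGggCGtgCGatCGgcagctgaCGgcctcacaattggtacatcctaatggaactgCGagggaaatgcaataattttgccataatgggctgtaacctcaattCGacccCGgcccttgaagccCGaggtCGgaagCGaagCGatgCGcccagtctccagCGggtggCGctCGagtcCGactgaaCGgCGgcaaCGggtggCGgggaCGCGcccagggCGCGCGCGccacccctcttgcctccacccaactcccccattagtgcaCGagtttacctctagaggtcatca

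The Hoxa9 window held 4 CG dinucleotides and the Hoxa5 window 29, against a median of 7 over 32841 RefSeq promoters of that length. Of all these promoters 31.4% had fewer than Hoxa9 and 87.1% had fewer than Hoxa5. The Hoxa7 window held 9, the pair of Hoxa10 windows 21 and 12, and the Meis1 window 15. The Hoxa9 and Hoxa7 windows lie inside the genes, whose annotated 5′ ends are at 52231089 and 52221854. The furthest 5′ starts of these genes are thus not covered. Methylation itself was not measured in these libraries, and whether CG number goes with the calls was not tested. The MEIS site TGACAG, searched on both strands, was in 19.2% of all promoters and in none of these windows. The PBX and HOX pair TGATTNAT was in 3.22% of all promoters and in none of these windows. The HOX and CDX motif TTTATNA was in 14.1% of all promoters and, among these windows, in that of Hoxa7, at 2 places. A match is a string of letters in this window only. Pbx3 and Mn1 are named only.

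Hoxa10 (ENSMUSG00000000938, chromosome 6, 52231197 to 52240854, minus strand, mm10), the next homeobox gene on the 5′ side, had 4.32, 7.03, 11.6 and 4.99 CPM in day 14 off cells and 11.3 and 10.0 CPM in day 14 on cells. At day 5 it had 15.1 and 9.41 CPM off, and 9.10 and 17.1 CPM on. Of the day 14 off libraries 3 lay below all the others. Replicate 3, at 11.6 CPM, lay above both day 14 on libraries and within the range of the day 5 libraries. Its day 14 change was -0.60 ± 0.39 (edgeR adjusted p = 0.276) and its day 5 change -0.12 ± 0.45 (adjusted p = 0.936).

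Hoxa7 (ENSMUSG00000038236, chromosome 6, 52214491 to 52221854, minus strand, mm10) had 15.2, 19.0, 29.3 and 16.9 CPM in day 14 off cells and 22.4 and 23.4 CPM in day 14 on cells. At day 5 it had 27.9 and 23.5 CPM off, and 14.9 and 27.3 CPM on. The groups overlapped on both days, with changes of -0.18 ± 0.29 at day 14 (edgeR adjusted p = 0.659) and 0.27 ± 0.33 at day 5 (adjusted p = 0.752). Hoxaas3, an antisense gene that overlaps Hoxa7 by 586 bases, had 0.586 to 0.812 times as many counts as Hoxa7 in every library. Reads from this overlap cannot be assigned to either gene, so the Hoxa7 level is uncertain.

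Hoxa5 (ENSMUSG00000038253, chromosome 6, 52201754 to 52204587, minus strand, mm10) had 6.35, 7.54, 10.5 and 4.33 CPM in day 14 off cells and 6.01 and 11.5 CPM in day 14 on cells. At day 5 it had 7.32 and 7.95 CPM off, and 3.93 and 11 CPM on. All groups overlapped, and the changes were -0.28 ± 0.43 at day 14 (edgeR adjusted p = 0.653) and 0.01 ± 0.50 at day 5 (adjusted p = 0.995). A missed threshold does not show that Hoxa5, Hoxa7 or Hoxa10 stayed level: the SE of Hoxa5 was 0.43 to 0.50 on the log2 scale.

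**Figure D2:**
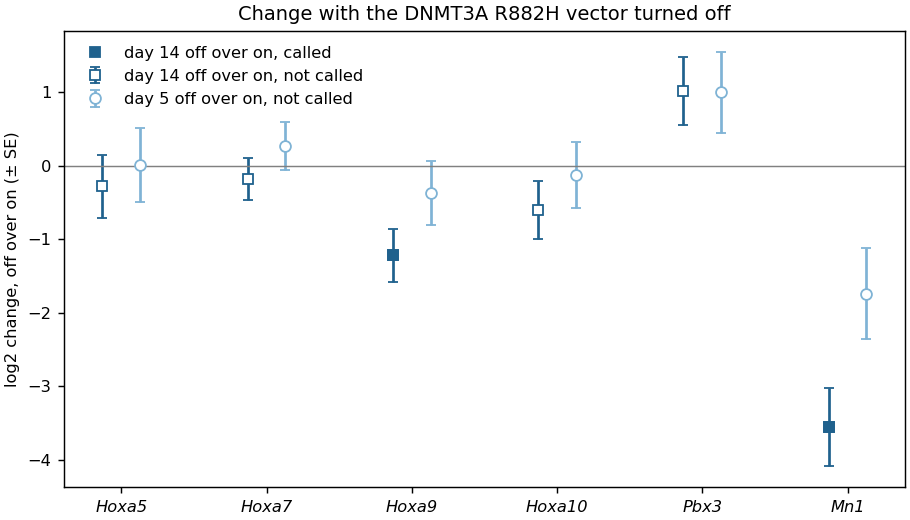
Log2 change of the 6 tested genes with the DNMT3A R882H vector off over on, at day 14 (squares) and day 5 (circles), with SE bars from edgeR; filled symbols were called at an adjusted p of 0.05. Hoxa9 (-1.22) and Mn1 (-3.56) at day 14 are the filled symbols, and Pbx3 lies near 1 on both days without a call.

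The 4 Hoxa genes lie within 1 stretch of chromosome 6, and their counts were also read as shares of their own sum within each library, which no scaling of libraries can move. Hoxa9 took 40.4%, 48.7%, 41.6% and 36.2% of the 4 genes' counts in day 14 off cells, against 56.9% and 59.2% in day 14 on cells. At day 5 it took 58.8% and 53.1% off, against 66.5% and 63.6% on. The off and on libraries did not overlap on either day. How often shares of other genes lie apart in this way was not counted. The counts behind a share were 437 to 2027, and the 95% Clopper-Pearson interval was 45.3% to 52.0% for the highest day 14 off share and 53.6% to 60.2% for the lowest day 14 on share. Hoxa7 took 29.0% to 41.2% in day 14 off cells and 21.3% to 24.3% in day 14 on cells, and Hoxa10 took 9.94% to 13.2% in day 14 off cells and 9.12% to 12.3% in day 14 on cells. Hoxa5 took 10.5% to 14.6% in day 14 off cells and 6.52% to 10.4% in day 14 on cells. The 4 shares of a library make up its whole sum, so where Hoxa9 took less, the other genes together took more. Higher shares of Hoxa7 and Hoxa5 are therefore no rise in their levels, which were not called. These shares were not tested, since they were formed after the levels were known.

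**Figure D3:**
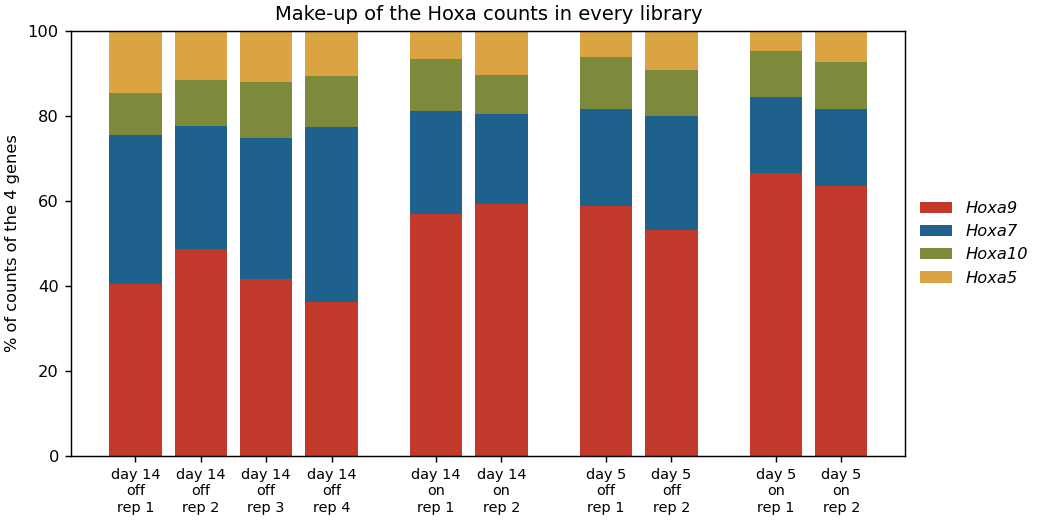
Percent of the summed counts of Hoxa9, Hoxa7, Hoxa10 and Hoxa5 that each gene took in each library, 1 bar per library. The Hoxa9 part is 36.2% to 48.7% in the 4 day 14 off libraries and 53.1% or more in the other 6.

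Of the 13 other genes of the cluster, 7 were tested, and edgeR called 0 on either day; at an unadjusted p under 0.05 there were 0 at day 14 and 1 at day 5, and DESeq2 and limma voom called 0. Hoxa11, Hoxa13, Evx1, Hoxa11os and Hottip, at the 5′ end, had 0 counts in all 10 libraries. Hoxa10 was thus the most 5′ gene of the cluster with counts. Among the antisense genes, Hoxaas3 changed by -0.32 ± 0.36 (edgeR adjusted p = 0.531) and Hotairm1, at the 3′ end, by 0.22 ± 0.34 (adjusted p = 0.652) at day 14. Of the 28 Hoxb, Hoxc and Hoxd genes, 15 had 0 counts throughout and none had more than 11 in a library. Only Hoxd11 of them was tested, and it was not called in any of the 5 comparisons.

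**Figure D4:**
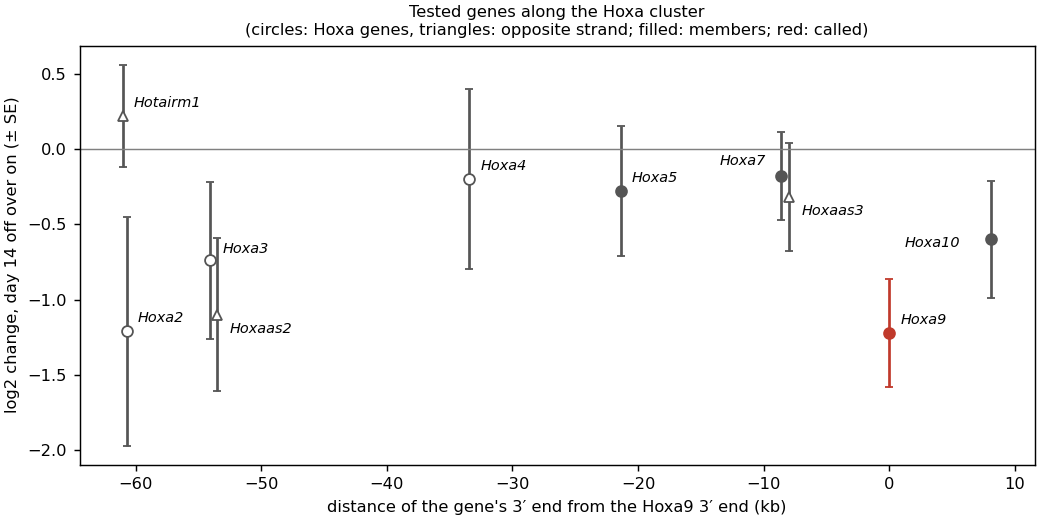
Log2 change at day 14, off over on, with SE bars, for 10 tested genes of the Hoxa cluster against the distance in kb of each gene's 3′ end from that of Hoxa9. Circles are Hoxa genes, triangles are genes of the opposite strand, filled circles are Hoxa5, Hoxa7, Hoxa9 and Hoxa10, and Hoxa9 alone is drawn in red as called.

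Pbx3 (ENSMUSG00000038718, chromosome 2, 34171457 to 34373142, minus strand, mm10), a TALE cofactor that pairs with HOXA9, was low in all groups. Its counts were 17, 33, 27 and 14 in day 14 off cells, 8 and 10 in day 14 on cells, 12 and 15 in day 5 off cells, and 3 and 11 in day 5 on cells. The levels were 1.44, 2.42, 1.86 and 1.32 CPM in day 14 off cells against 0.829 and 0.903 CPM in day 14 on cells, and 1.24 and 1.22 CPM in day 5 off cells against 0.337 and 0.826 CPM in day 5 on cells. Off libraries lay above on libraries on both days without overlap, as 52.5% of all tested genes did in one direction or the other at day 14 and 40.2% at day 5. The changes were 1.02 ± 0.46 at day 14 (edgeR adjusted p = 0.113) and 1.0 ± 0.55 at day 5 (adjusted p = 0.432), neither called. Pbx3 passed the filter, set at 0.872 CPM in at least 2 libraries, through 4 day 14 off, 1 day 14 on and 2 day 5 off libraries, so its entry into the test leaned on the off groups.

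Of 11 other TALE genes 7 were tested, with 1 called higher and 2 lower at day 14 (42.9% beside 31.8% of all genes). The number lower was 0 to 2 when a library was left out. Tgif2, a transcriptional repressor, had 24.6, 24.0, 24.7 and 19.9 CPM in day 14 off cells against 8.60 and 12.0 CPM in day 14 on cells, and rose by 1.17 ± 0.21 (edgeR adjusted p = 0.00182). Its relative Tgif1 had 13.8 to 24.4 CPM in day 14 off cells against 27.4 and 31.7 CPM in day 14 on cells, and fell by 0.74 on the log2 scale (SE 0.24, adjusted p = 0.0392). Meis3 fell by 1.41 (SE 0.50, adjusted p = 0.0498), at 0.339 to 0.551 CPM in day 14 off cells against 1.45 and 0.994 CPM in day 14 on cells. The Tgif1 call was lost when any of 5 of the 6 day 14 libraries was left out (adjusted p up to 0.179), and the Meis3 call was lost under 12 of 17 alternatives, with adjusted p up to 0.262. At day 5 edgeR called 0 of the 7, with 1 at an unadjusted p under 0.05 and 0 by DESeq2 and voom.

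Mn1 (ENSMUSG00000070576, chromosome 5, 111417362 to 111457033, plus strand, mm10) had the largest change among the members. Its level was 1.69, 6.44, 3.86 and 4.71 CPM in day 14 off cells, against 25 and 74.2 CPM in day 14 on cells. At day 5 it was 17.0 and 16.0 CPM off, against 29.0 and 80.5 CPM on. Off lay below on without overlap on both days. Of all tested genes, 52.5% did not overlap at day 14 and 40.2% at day 5, in one direction or the other. The on libraries of a day differed by 2.97-fold at day 14 and 2.78-fold at day 5. Replicate 1 was the lower on library on both days, and what a replicate number marks is not given. The group means were 4.17 ± 1.97 CPM in day 14 off cells (SD, n = 4), 49.6 ± 34.8 in day 14 on cells, 16.5 ± 0.727 in day 5 off cells and 54.7 ± 36.4 in day 5 on cells (SD, n = 2 each). The day 14 change was -3.56 ± 0.53 (edgeR adjusted p = 0.000953), 11.8-fold lower. It stayed called in all 18 alternatives, with log2 changes of -4.17 to -2.58. At day 5 the change was -1.74 ± 0.62, with an unadjusted p of 0.0191 and an adjusted p of 0.245, which is no call. With no low-count filter the day 5 value was the same and its edgeR adjusted p was 1.92e-09. That fit also called 558 genes higher and 434 lower at day 5, against 59 and 18 in the main fit. DESeq2 and voom did not call Mn1 at day 5. Without day 5 on replicate 1 the day 5 change was -2.34 (adjusted p = 0.0707), and without day 5 on replicate 2 it was -0.81 (adjusted p = 0.650).

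The off libraries of both days were compared next, to see which genes moved between 5 and 14 days of doxycycline. Hoxa9 had 14.9 to 36.6 CPM in day 14 off cells against 46.2 and 71.8 CPM in day 5 off cells, and fell by 1.22 on the log2 scale (SE 0.36, edgeR adjusted p = 0.0456). Mn1 had 1.69 to 6.44 CPM in day 14 off cells against 16.0 and 17.0 CPM in day 5 off cells, and fell by 1.97 (SE 0.55, adjusted p = 0.0356). These 2 of the 6 tested members were called, both lower, beside 17.0% of all tested genes, 6.94% lower. In both genes the day 14 off and day 5 off libraries did not overlap, as in 45.7% of all tested genes. Both calls were fragile. Without day 5 off replicate 1 the Hoxa9 change was -0.87 (adjusted p = 0.335) and the Mn1 adjusted p was 0.166. Hoxa9 also missed the threshold without day 14 off replicate 1 (0.0998), replicate 2 (0.0549) or replicate 4 (0.0781), without day 5 off replicate 2 (0.0702), and with the compared groups fitted alone (0.0503). Mn1 also missed it without day 14 off replicate 1 (0.0709), replicate 3 (0.0714) or replicate 4 (0.0631), without day 5 off replicate 2 (0.111), and with limma voom (0.0572). Hoxa10 changed by -0.79 ± 0.39 (adjusted p = 0.190), Hoxa7 by -0.35 ± 0.28 (0.435), Hoxa5 by -0.08 ± 0.43 (0.922) and Pbx3 by 0.52 ± 0.43 (0.441). Hoxa10 was called in 2 alternatives, with an adjusted p of 0.0216 with no low-count filter and 0.0477 without day 14 off replicate 3.

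With the vector left on, day 14 against day 5 gave 0 called members by edgeR, with 0 at an unadjusted p under 0.05 and 0 by DESeq2 and voom, where 2.32% of all tested genes were called. Hoxa9 changed by -0.38 ± 0.43 (edgeR adjusted p = 0.666) and Mn1 by -0.15 ± 0.59 (adjusted p = 0.922). Whether the off over on change itself differed between the days was tested as a difference of the 2 changes. Mn1 differed by -1.83 ± 0.82 (unadjusted p = 0.0492, adjusted p = 0.215) and Hoxa9 by -0.84 ± 0.57 (adjusted p = 0.401), a negative value meaning a lower off over on change at day 14. The Mn1 difference ran from -2.75 without day 5 on replicate 2 to -0.84 without day 14 on replicate 2. None of the 6 was called there by edgeR, DESeq2 or voom, beside 3.06% of all tested genes. A larger effect at day 14 than at day 5 is thus not shown for any member. The comparisons share groups, so their values are not independent of each other.

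Genes reported in mouse or human work to be bound or controlled by HOXA9 or MEIS1 were counted next. This list, like the other gene lists here, was chosen with earlier results of these data known. A share above that of all genes is therefore no independent test. Of 30 such genes 25 were tested. At day 14 edgeR called 2 higher and 14 lower, 64.0% of the tested ones beside 31.8% of all genes, and the median log2 change was -0.75 against 0.01 over all genes. Of the 30 genes, 6 (Cd34, Erg, Flt3, Hlf, Mecom and Sox4) also stand in another of the gene lists used here. The number lower was 11 to 16 over all alternatives.

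Mef2c, a transcription factor of myeloid progenitors, had 30.3, 42.2, 40.8 and 36.6 CPM in day 14 off cells against 173.1 and 170.1 CPM in day 14 on cells. It fell by 2.19 on the log2 scale (SE 0.19, edgeR adjusted p = 5.01e-05). Syk, a cytoplasmic tyrosine kinase, had 21.5 to 33.4 CPM in day 14 off cells against 81.3 and 100.7 CPM in day 14 on cells and fell by 1.86 (SE 0.21, adjusted p = 0.000175). Sox4, a transcription factor, had 30.4 to 58.6 CPM in day 14 off cells against 243.8 and 590.6 CPM in day 14 on cells and fell by 3.28 (SE 0.38, adjusted p = 0.000255). Etv6, an ETS factor, had 82.8 to 102.2 CPM in day 14 off cells against 211.4 and 202.2 CPM in day 14 on cells and fell by 1.16 (SE 0.15, adjusted p = 0.000369). No off and on libraries overlapped in these 4 genes, as in 52.5% of all tested genes, and all 4, taken as those of smallest p in the list, stayed called in every alternative run. The 2 called higher were Lmo2, a factor of early blood and erythroid cells, at 73.0 to 92.9 CPM in day 14 off cells against 57.1 and 44.3 CPM in day 14 on cells, and Trib2, a pseudokinase, at 58.5 to 98.5 CPM in day 14 off cells against 12.4 and 26.6 CPM in day 14 on cells. They were named after their values were seen.

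**Figure D5:**
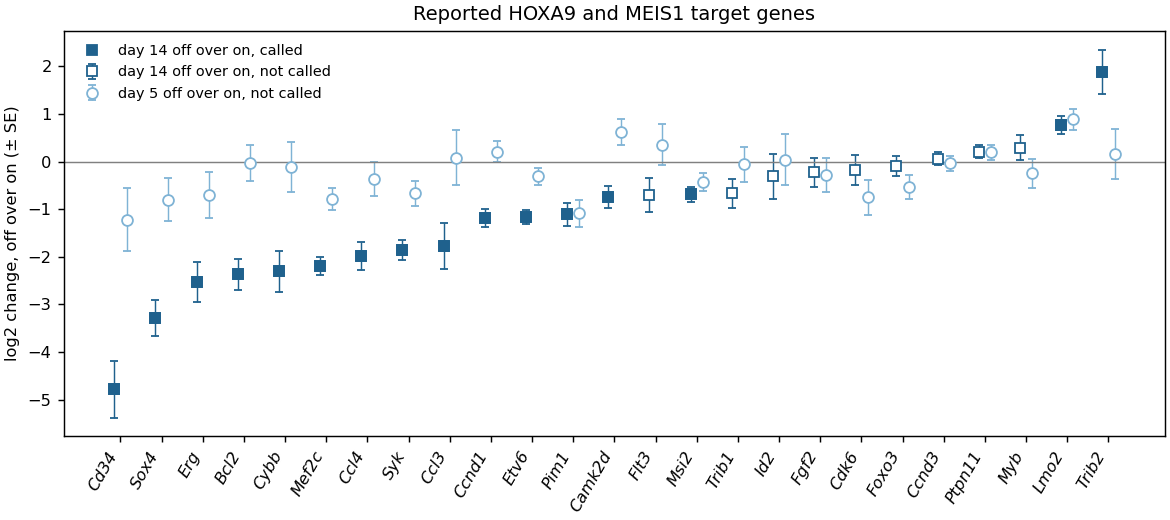
Log2 change, off over on, with SE bars, of the 25 tested reported HOXA9 and MEIS1 target genes at day 14 (squares) and day 5 (circles), ordered by the day 14 change. Filled squares mark the 14 genes called lower and the 2 called higher at day 14, and no gene was called at day 5.

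At day 5 edgeR and voom called 0 of the 25 target genes, DESeq2 called 2, and 6 had an unadjusted p under 0.05. Their median log2 change was -0.25 against -0.02 over all genes. The off over on change differed between the days in 3 of them, each lower at day 14: Ccnd1, a cyclin, by -1.40 ± 0.30 (edgeR adjusted p = 0.0373), Mef2c by -1.40 ± 0.30 (0.0377) and Bcl2, which inhibits apoptosis, by -2.34 ± 0.51 (0.0429). Each of these 3 calls was lost in at least 7 of the 10 fits that left out 1 library, with adjusted p up to 0.152. They were named after their values were seen.

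Of the 15 tested factors reported to share enhancers with HOXA9, edgeR called 1 higher and 7 lower at day 14 (53.3% beside 31.8% of all genes), and their median log2 change was -0.53. Of these factors 3 (Cebpa, Erg and Gfi1) also stand in another of the gene lists. Fli1, an ETS factor, had 26.5, 24.5, 25.5 and 24.3 CPM in day 14 off cells against 53.9 and 53.8 CPM in day 14 on cells and fell by 1.10 on the log2 scale (SE 0.12, edgeR adjusted p = 0.000135). Erg, a close relative of Fli1, had 1.39 to 2.07 CPM in day 14 off cells against 7.36 and 12.8 CPM in day 14 on cells and fell by 2.53 (SE 0.42, adjusted p = 0.00131). Gfi1, a repressor of granulocytic cells, had 1.98 to 4.91 CPM in day 14 off cells against 9.64 and 19.8 CPM in day 14 on cells and fell by 2.32 (SE 0.43, adjusted p = 0.00275). Its erythroid counterpart Gfi1b had 36.6 to 41.9 CPM in day 14 off cells against 6.74 and 15.9 CPM in day 14 on cells and rose by 1.77 (SE 0.35, adjusted p = 0.00344). At day 5 edgeR called 0 of the 15, with 2 (Cebpb and Lyl1) at an unadjusted p under 0.05, 1 called by DESeq2 and 0 by voom.

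Regulators that open or close the Hoxa cluster, among them the MLL and DOT1L complexes and Polycomb, moved in both directions. Of 35 listed 33 were tested, and at day 14 edgeR called 9 higher and 6 lower (45.5% beside 31.8% of all genes). The number higher was 2 without day 14 on replicate 1, 4 without day 14 on replicate 2 and 5 without day 14 off replicate 2, and the number lower was 2 without day 14 on replicate 2. Aff4, a scaffold of the super elongation complex, had 22.3, 27.4, 27.7 and 23.2 CPM in day 14 off cells against 42.8 and 55.5 CPM in day 14 on cells and fell by 0.97 on the log2 scale (SE 0.15, adjusted p = 0.00100). Ezh2, the Polycomb methyltransferase, had 141.5 to 179.8 CPM in day 14 off cells against 108.9 and 99.4 CPM in day 14 on cells and rose by 0.69 (SE 0.13, adjusted p = 0.00281). Dpy30, a shared subunit of MLL complexes, rose by 0.69 (SE 0.15, adjusted p = 0.00506) and Ash1l, a histone methyltransferase, fell by 0.60 (SE 0.13, adjusted p = 0.00531). The Dpy30 call was lost without day 14 on replicate 1 (adjusted p = 0.0581). Cdx2 and Cdx4, caudal factors that switch on Hoxa genes, had 0 counts in all libraries. At day 5 edgeR and voom called 0 of the 33 and DESeq2 1, with 6 at an unadjusted p under 0.05.

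Markers of blood cell types moved with the Hoxa9 and Mn1 falls at day 14. Of the stem and progenitor genes 14 of 22 were tested, with 0 called higher and 7 lower, and their summed level was 416.4 to 452.4 CPM in day 14 off cells against 1004.7 and 1657.7 CPM in day 14 on cells. Kit, the receptor sorted on, had 30.9 to 36.4 CPM in day 14 off cells against 88.9 and 98.1 CPM in day 14 on cells. Of the erythroid markers all 22 were tested, with 15 called higher and 0 lower and a summed level of 4527.3 to 5852.3 CPM in day 14 off cells against 1671.8 and 2303.3 CPM in day 14 on cells. Of the granulocyte progenitor markers 8 of 10 were tested, with 0 called higher and 5 lower (2 lower without day 14 on replicate 1) and a summed level of 22.8 to 103.4 CPM in day 14 off cells against 145.5 and 346.6 CPM in day 14 on cells. Beside 31.8% of all genes, 68.2% of erythroid markers, 62.5% of granulocyte progenitor markers and 7 of the 14 stem and progenitor genes were called. Of the listed stem and progenitor genes 9, and of the granulocyte progenitor markers 2 (Cebpa and Gfi1), also stand in another list, so these counts are not separate. Itgam, which encodes the Cd11b that was gated out, had 2.07 to 3.73 CPM in day 14 off cells against 21.9 and 8.76 CPM in day 14 on cells. Beside Mn1 at day 5, the stem and progenitor sum was 723.9 and 931.7 CPM off against 1107.0 and 1225.2 CPM on, with 0 genes called by edgeR, 3 (Gata2, Kit and Procr) at an unadjusted p under 0.05, 1 by DESeq2 and 0 by voom. The erythroid sum was 1176.3 and 2707.4 CPM off against 1519.8 and 3581.0 CPM on at day 5. A sum leans on the most abundant markers, and the median log2 change of the 22 markers was 2.05. Of the 22, 15 had an unadjusted edgeR p under 0.05. Called at day 5 were 3 markers (Rhag, Car1 and Epor) higher by edgeR, 14 higher and 1 lower by DESeq2, and 0 by voom. Rhag and Car1 lost the call in 9 of 18 alternatives and Epor in 12 of 18, and the number higher was 0 to 12 when a library was left out. The part of these cell types in the Hoxa9 and Mn1 values was not tested.

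Markers of 8 further cell types were counted at day 14 in the same way, as genes called higher and lower of those tested. They were 1 and 4 of 16 for neutrophils, 0 and 4 of 12 for monocytes and macrophages, 2 and 2 of 9 for megakaryocytes, and 0 and 2 of 5 for mast cells and basophils. For lymphoid and other cells they were 0 and 1 of 6 for B cells, 1 and 5 of 11 for T and NK cells, 0 and 1 of 8 for dendritic cells, and 1 and 1 of 4 for stroma and endothelium. The share of all tested genes called was 31.8%, against 31.2% of neutrophil and 33.3% of monocyte and macrophage markers. It was higher for T and NK cell (54.5%) and megakaryocyte markers (44.4%), and lower for B cell (16.7%) and dendritic cell markers (12.5%). Mast cell and basophil markers and stroma and endothelium markers also lay above 31.8%, with only 5 and 4 genes tested. The B cell sum was 42.5 to 62.7 CPM in day 14 off cells against 137.7 and 177.7 CPM in day 14 on cells, and the neutrophil sum was 815.7 to 1251.0 CPM in day 14 off cells against 1241.5 and 1920.2 CPM in day 14 on cells. The T and NK cell sum was 111.3 to 179.5 CPM in day 14 off cells against 197.0 and 260.9 CPM in day 14 on cells, and the stroma and endothelium sum was 67.8 to 101.1 CPM in day 14 off cells against 145.8 and 240.2 CPM in day 14 on cells. The monocyte and macrophage sum was 791.8 to 1631.7 CPM in day 14 off cells against 635.1 and 2001.5 CPM in day 14 on cells, and the dendritic cell sum was 1713.3 to 3978.9 CPM in day 14 off cells against 1970.8 and 4222.9 CPM in day 14 on cells. The megakaryocyte sum was 51.1 to 83.2 CPM in day 14 off cells against 64.3 and 78.8 CPM in day 14 on cells, and the mast cell and basophil sum was 34.2 to 46.1 CPM in day 14 off cells against 26.2 and 49.1 CPM in day 14 on cells. The off and on sums did not overlap for B cells, T and NK cells, and stroma and endothelium, and overlapped for the other 5 types.

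Dnmt3a, the mouse gene of the vector's protein, had 31.9 to 39.2 CPM in day 14 off cells against 55.9 and 73.6 CPM in day 14 on cells, and 50.2 and 65.6 CPM in day 5 off cells against 51.2 and 52.8 CPM in day 5 on cells. The vector's message need not end in the mouse gene's 3′ tag, so this level does not check the labels.

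For each tested member, the 3 genes of most similar pattern were found by the root mean square difference of centred log2 CPM over the 10 libraries, among genes whose log2 CPM averaged 3 or more. For Hoxa9 they were Cers6 (0.29), Appl2 (0.32) and Rfc2 (0.34), against a median of 0.91 over 8280 genes. For Mn1 they were Sh2d5 (0.41), Lypd6b (0.42) and Fam169b (0.43), against a median of 1.83. For Hoxa10 they were Fkbp1a (0.24), Slc25a12 (0.24) and Arl10 (0.25), for Hoxa7 Dusp6 (0.18), Eno1 (0.19) and Gde1 (0.19), and for Hoxa5 Zfp523 (0.26), Prune1 (0.26) and Mir703 (0.27). For Pbx3 they were Fanci (0.23), Pus1 (0.24) and Tbl2 (0.24).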

How the data were processed

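RNA of sorted cKit-positive, Cd11b-negative cells was sequenced as QuantSeq 3′ libraries, per the labels' protocols. The submitters' processing notes name cutadapt 1.14, HISAT2 2.0.4, featureCounts, Subread 2.0.0 and the build mm10. The deposited values are raw counts for each Ensembl gene ID, not normalised. Alignment settings, strand and annotation were not given in the sources used here. Of 52636 gene IDs, 52489 matched GENCODE M21, used for symbols and positions.

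In R 4.3.3 with edgeR 4.0.16, genes were kept by filterByExpr with the 4 groups and scaled by TMM. One robust quasi-likelihood fit with 1 mean per group covered all 10 libraries, with Benjamini-Hochberg adjustment over 15916 genes and calls at 0.05. The SE of a log2 change is its size over the root of F. Replicate pairs all differed beyond sampling noise (chi-square per degree of freedom 7.91 to 53.6). DESeq2 1.42.0, limma 3.58.1 (voom) and other scalings, filters and fits were alternatives, and each library was left out in turn.

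The members and gene lists were chosen with earlier results of these data known. Named by rule are all members, list genes of the TALE and cluster groups that were called or overlap a member, up to 4 called genes of smallest p per other list, and the 3 genes most like each member. Alternatives for gene lists were added after the data were seen. Single values of some list genes are not reported here, in text or figures.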

Additional observations from a re-analysis of the deposited data

Results flagged for a closer look

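Meis1 reached 0.659 CPM in its highest day 14 off library, replicate 4, where the other 3 day 14 off libraries had 0.0688 to 0.146 CPM. This library stood apart from its group, with a gap of 0.868 of the group's range. The value rests on 7 counts. The 95% critical value used sets about 1 in 20 groups apart by chance if values are normally distributed, which was not shown for counts this low. The rule was applied to the day 14 off libraries of all 7 genes, at the highest and at the lowest value, so a flag somewhere among them is more likely than in a single gene.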

How the results depend on the processing

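The 4 called member changes kept their direction in every alternative. Counted here are values, each being 1 change in 1 fit, from 8 other settings and from 10 fits that each left out 1 library. Of the 32 values with another scaling, filter, test, block or set of libraries, 2 lost their call. Of the 40 values with 1 library left out, 14 did. The Mn1 fall at day 14 lost its call in none. The number of members called lower was 1 to 2 at day 14 when a library was left out, and 0 to 2 for day 14 over day 5 with the vector off, where limma voom and the compared groups alone each gave 1 and the unfiltered fit gave 3 (Hoxa10 added). With no low-count filter 1 member (Mn1) was called lower at day 5 and 2 (Hoxa9 at -0.86 and Mn1 at -1.85) in the difference between days. Of the 26 member changes not called, reversals were seen in 21 of 260 values without a library and 4 of 197 others, and the cause was not tested. Without the filter, with DESeq2 and with voom the Pbx3 difference between days, 0.02, became 0, -0.01 and -0.08, and with a minimum of 5 CPM the Hoxa5 change at day 5 became -0.02. The log2 changes that reversed when a library was left out ran as follows. For Hoxa5 they ran from -0.70 to 0.25 at day 14, -0.57 to 0.96 at day 5, -0.33 to 0.09 off over time, -0.34 to 1.16 on over time and -1.24 to 0.26 in the difference between days. For Hoxa7 they ran from -0.15 to 0.78 at day 5 and -0.28 to 0.61 on over time, for Hoxa9 from -0.77 to 0.08 and -0.74 to 0.08, and for Hoxa10 from -0.55 to 0.42 and -0.71 to 0.23. Mn1 on over time ran from -1.14 to 0.78, and Pbx3 in the difference between days from -0.81 to 0.48. Counts over all genes moved more. At day 5 the 59 higher and 18 lower became 558 and 434 with no filter, 310 and 162 with DESeq2, 142 and 83 with the replicate block, and 0 and 0 with voom or the compared groups alone, and ran from 0 to 138 and 0 to 192 when a library was left out. Day 14 over day 5 with the vector on, at 154 and 216, became 773 and 502 with no filter, 549 and 587 with DESeq2, 509 and 505 with the replicate block, 0 and 0 with those groups alone, 139 lower with RLE and 135 lower with voom, and 0 to 283 and 0 to 416 without a library. The difference between days, at 262 and 225, became 775 and 1182 with no filter, 681 and 646 with DESeq2, 720 and 801 with the replicate block, and 51 to 654 and 48 to 414 without a library. Leaving out a library gave 1420 to 3010 higher and 1579 to 2836 lower at day 14, and 324 to 2012 and 305 to 1451 for day 14 over day 5 off. The direction split of these calls moved by over 10 percentage points at day 5, where 76.6% of calls were higher against 56.2% with no filter, 65.7% with DESeq2 and 63.1% with the replicate block, for the vector left on, where 41.6% of calls were higher against 60.6% with no filter, and for the difference between days, with 53.8% against 39.6%. No scaling moved the median of all genes by over 0.1. A block by replicate number changed no member's call; the numbers are not said to mark a shared mouse or batch, deviations of same-numbered libraries correlated at 0.287 to 0.535 across 9303 genes, and they were not taken as pairs. Of the other named genes at day 14, 16 of 250 values without a library and 4 of 199 others lost the call. Where 1 library remained in a group, its spread was taken from the other groups. Depth limits Meis1 and Pbx3, which had few counts, and 3 of the 4 groups held 2 libraries.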
